A study of Mus musculus with 11 samples.

Results

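Cadherins, protocadherins, contactins, contactin-associated proteins, L1-type molecules, Ncam and Alcam are surface proteins through which neurons hold to neighbouring cells and axons hold to each other. They were followed here in the trigeminal ganglion, the sensory ganglion of the face, of mouse embryos with and without the transcription factor Brn3a, which is encoded by Pou4f1. Members were taken by name alone: a probe set belonged where its only annotated symbol began with Cdh and a digit, Pcdh, Cntn and a digit, Cntnap or Ncam, or was Chl1, L1cam, Nrcam, Nfasc or Alcam. The rule itself uses no measured value, but it was chosen with earlier results of these data known. It gave 36 of the 13675 named genes of the series, measured by 67 of its 24899 probe sets. The U74Av2 array held 34 of these probe sets (25 genes) and the U74Bv2 array 33 (22 genes), and 11 genes were on both. The cadherins made up 24 probe sets of 14 genes and the protocadherins 16 of 9. The contactins with their associated proteins made up 10 of 6, the L1 type 8 of 4, Ncam 6 of 2 and Alcam 3 of 1.

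The ganglia were dissected at embryonic day 13.5 from Brn3a wild-type, heterozygote and knockout embryos, and each array was hybridised with RNA from a pool of about 10 to 12 ganglia of 1 genotype. According to the design text, axon growth of these neurons is already abnormal in the mutant at that age and most of the neuron loss comes later. On U74Av2 there were 2 arrays per genotype, and on U74Bv2 there were 2 knockout, 2 heterozygote and 1 wild-type array. The sources used here do not say how the knockout allele was made or on which strain. The loss is carried by the whole embryo as far as the labels say, since no promoter or Cre is named. Replicates are separate pools or arrays of a genotype by their labels, and the p-values measure the spread between them. It is not known from the labels if U74Av2 and U74Bv2 arrays drew on shared pools of ganglia. Like results for a gene on U74Av2 and U74Bv2 may therefore not be independent of each other.

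Classical cadherins bind the same cadherin on a facing cell in the presence of calcium and are anchored to actin through catenins. Protocadherins share the extracellular cadherin repeats, have other cytoplasmic tails and take part in recognition between neurites. Contactins, the L1 type, Ncam and Alcam belong to the immunoglobulin superfamily. Contactins lack a cytoplasmic part and sit in the membrane by a lipid anchor, while the L1-type proteins cross the membrane and bind ankyrin. In sensory ganglia these immunoglobulin-type molecules are known for axon outgrowth, the bundling of axons and, later, the organisation of the node of Ranvier.

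The signals are MAS5 intensities on a linear scale, with no unit beyond each array's common scaling. Differences are on a log2 scale after adding 50.0 (U74Av2) or 49.8 (U74Bv2) to each signal, and they understate the change of dim probe sets. Adjusted p-values come from limma fitted to all tested probe sets of an array type with Benjamini-Hochberg adjustment, two-sided, and a probe set was called under 0.05. Knockout was compared with wild-type, with heterozygote and with all other arrays of the type. These comparisons share the knockout arrays, and the last one contains the others, so they are not independent of each other. Per-array signals are listed in the order wild-type, heterozygote, knockout, and within a genotype by the number in the label. Levels were not compared between probe sets, since each probe set has its own response.

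A filter on low signal left 40 of the 67 probe sets, of 25 genes, to be tested: 13 on U74Av2 (12 genes) and 27 on U74Bv2 (18 genes). The 21 U74Av2 probe sets below it had signals between 2.4 and 208 on the arrays, and the 6 on U74Bv2 between 5.9 and 185. The 11 genes Cdh8, Cdh9, Cdh15, Cdh16, Cntn3, Cntn4, Cntnap2, Ncam2, Pcdh1, Pcdh9 and Pcdhb7 had no probe set above the filter on either array type, which does not show that the transcripts were missing. Of the tested probe sets on U74Bv2, 1 passed through its knockout arrays alone (Nfasc 116375_at). Another 3 passed through the other arrays alone (Cntnap1 105746_at, Cdh13 164646_at and Pcdh10 164244_at), so for these 4 some difference was built in by the filter.

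Across the series, the 2% trimmed mean of an array's signals ranged from 500.26 to 500.29 (U74Av2) and from 497.61 to 498.38 (U74Bv2). The Pou4f1 probe set on U74Bv2 gave 3313 (wild-type), 2196 and 3570 (heterozygote), then 550 and 904 (knockout). Both knockout arrays were the lowest (log2 difference from all other arrays -1.99, limma adjusted p = 0.00292), but the sources used here do not say which part of the gene it reads relative to the deletion. The signals of 16 marker genes of sensory neurons, which define the labelled tissue, were summed on U74Av2. This sum was 65836 to 69709 in wild-type, 74454 to 89927 in heterozygote and 64109 to 68149 in knockout arrays. Of the 16 genes, 13 passed the filter and 2 stayed under a signal of 100 on every array. Differences of the 13 between knockout and all other arrays ran from -2.68 (Avil) to 0.16 (Snap25) on the log2 scale. The 18S ribosomal RNA control probe sets of U74Av2, a sign of RNA make-up, had geometric means of 5173 (wild-type), 6745 (heterozygote) and 12803 (knockout) on the number 1 arrays and 511, 518 and 974 on the number 2 arrays. They were thus highest in the knockout within each number, and their part in the results on U74Av2 was not tested. In whole ganglia, fewer cells of a type and less RNA per cell cannot be told apart, which holds for every difference below.

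The 27 tested members on U74Bv2 held 6 calls (22.2%) between knockout and all other arrays, against 2.93% of all tested probe sets there (0.967% higher and 1.96% lower). Cntnap1, Cntn2 and both Alcam probe sets fell in the knockout ganglia, and Chl1 and Pcdh17 rose. Of the 13 tested on U74Av2, Cdh6 was the only one called (7.69%, against 0.872% of all tested probe sets, 0.295% higher and 0.577% lower), and it rose. Both knockout arrays stood clear of every other array, with a mean difference of at least 0.5 on the log2 scale, for 17 of 27 members on U74Bv2 (63.0%, 6 higher and 11 lower). Of all tested probe sets there 8.97% did so (3.84% higher and 5.13% lower). On U74Av2 it was 4 of 13 (30.8%, 1 higher and 3 lower) against 6.67% (3.11% higher and 3.56% lower). The median size of the log2 difference between knockout and all other arrays was 0.63 over the U74Bv2 members and 0.17 over all tested probe sets, and on U74Av2 it was 0.38 and 0.16. The U74Bv2 counts hold members that the filter admitted from one side only: Cntnap1 105746_at in both counts, and Nfasc 116375_at and Pcdh10 164244_at in the second. Among the 23 members whose knockout arrays and other arrays each passed the filter alone, 5 were called (21.7%, against 2.70% of all such probe sets) and 14 stood clear by at least 0.5 (60.9%, against 7.62%). Members of 1 gene share a transcript and are not independent in these counts.

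**Figure D1:**
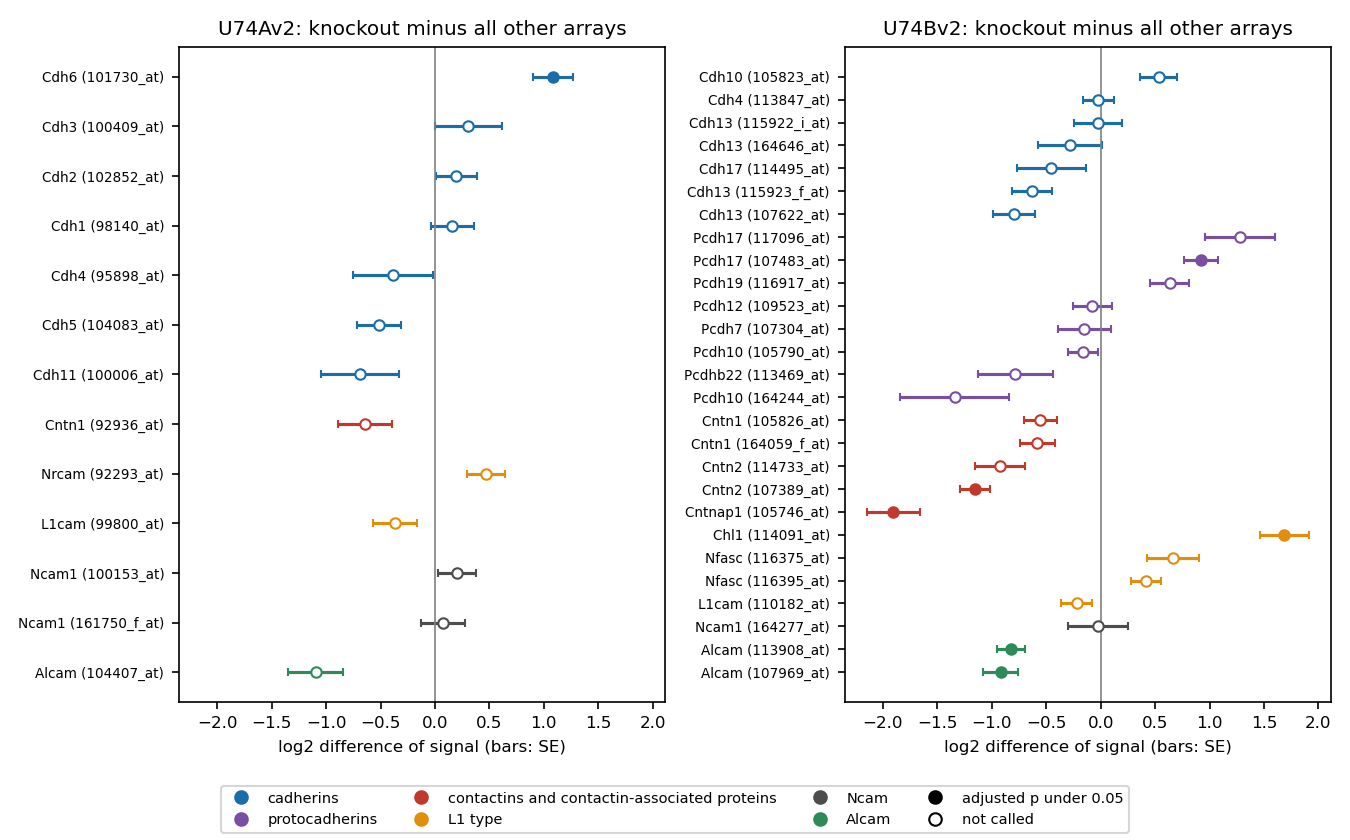
Log2 difference between knockout and all other arrays (horizontal axis, log2 scale) for each tested probe set, with its standard error as a bar, U74Av2 in one panel and U74Bv2 in the other. Colours mark the families and filled points the called probe sets: 6 of 27 on U74Bv2, from Cntnap1 at -1.91 to Chl1 at 1.69, and 1 of 13 on U74Av2, Cdh6 at 1.09.

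Split by genotype, the direct comparison of knockout with wild-type called 3 of 27 members on U74Bv2 (11.1%, against 1.40% of all tested), namely Cntnap1 and Cntn2 lower and Pcdh17 higher. It called 0 of 13 on U74Av2 by limma, against 0.255% of all tested probe sets, and 4 had an unadjusted p under 0.05, as did 5.11% of all tested. Knockout against heterozygote called 4 of 27 on U74Bv2 (14.8%, against 1.71%), with Cntnap1, Cntn2 and Alcam lower and Chl1 higher. On U74Av2 it called 0 of 13 by limma, against 0.188% of all tested, and 3 had an unadjusted p under 0.05, as did 5.25% of all tested. On U74Bv2 an unadjusted p under 0.05 was reached by 11 of 27 members against wild-type and 16 of 27 against heterozygote, and by 11.2% and 9.67% of all tested. Against all other arrays it was reached by 5 of 13 members on U74Av2 and 18 of 27 on U74Bv2, and by 7.92% and 12.3% of all tested. With the label's number as a block, U74Av2 members called were 1 against wild-type, 2 against heterozygote and 3 against all other arrays, of 13 each. In the same blocked fit 1.74%, 1.73% and 3.57% of all tested probe sets were called. Heterozygote against wild-type called 0 of 13 and 0 of 27 members, with 0 at an unadjusted p under 0.05 on either array type. Of all tested probe sets 0 were called, and 0.698% on U74Av2 and 3.80% on U74Bv2 had an unadjusted p under 0.05.

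Brn3a is a DNA-binding factor, so the promoters of 5 of the 6 genes called between knockout and all other arrays are shown. The sixth, Cntnap1, was not in the promoter table used here. Each is the 250 bases before the start of the gene on its own strand, from RefSeq on GRCm38.p6. The windows are chr1:132542941-132543190 on the minus strand for Cntn2, chr16:52453082-52453331 on the minus strand for Alcam, and chr6:103510626-103510875 on the plus strand for Chl1. They are chr15:13173676-13173925 on the minus strand for Cdh6 and chr14:84443313-84443562 on the plus strand for Pcdh17. Capitals mark every match to any of the motifs searched.
Cntn2: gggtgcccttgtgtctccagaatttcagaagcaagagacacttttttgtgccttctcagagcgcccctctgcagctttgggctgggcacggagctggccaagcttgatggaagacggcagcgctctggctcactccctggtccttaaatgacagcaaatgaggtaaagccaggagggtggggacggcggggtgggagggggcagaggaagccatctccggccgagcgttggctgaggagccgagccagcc
Alcam: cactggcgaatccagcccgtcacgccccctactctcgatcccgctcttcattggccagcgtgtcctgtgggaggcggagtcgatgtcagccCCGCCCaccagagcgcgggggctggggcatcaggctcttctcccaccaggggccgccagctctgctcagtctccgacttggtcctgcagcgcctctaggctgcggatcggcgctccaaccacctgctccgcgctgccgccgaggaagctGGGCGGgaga
Chl1: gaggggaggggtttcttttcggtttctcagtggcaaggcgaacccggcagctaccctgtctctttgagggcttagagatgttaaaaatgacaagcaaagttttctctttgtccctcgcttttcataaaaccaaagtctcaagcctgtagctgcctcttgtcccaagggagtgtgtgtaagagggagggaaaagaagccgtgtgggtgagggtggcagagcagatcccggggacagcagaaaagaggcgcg
Cdh6: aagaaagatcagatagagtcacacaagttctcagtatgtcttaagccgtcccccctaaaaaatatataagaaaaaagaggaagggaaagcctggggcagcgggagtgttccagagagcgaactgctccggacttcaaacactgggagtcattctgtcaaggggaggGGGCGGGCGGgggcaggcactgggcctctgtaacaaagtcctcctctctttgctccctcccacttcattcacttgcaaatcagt
Pcdh17: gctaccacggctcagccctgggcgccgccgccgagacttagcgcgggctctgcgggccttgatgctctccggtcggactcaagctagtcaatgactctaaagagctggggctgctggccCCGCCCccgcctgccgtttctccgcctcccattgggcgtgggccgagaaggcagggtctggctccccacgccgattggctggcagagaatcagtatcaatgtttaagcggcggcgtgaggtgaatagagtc
The motifs searched, on both strands, were AATTAAT (an AT-rich core of the kind bound by POU homeodomain factors), ATGCAAAT (the octamer), TATAAA (the TATA box) and GGGCGG (the GC box). All capitals above are GGGCGG or its reverse complement. The motif lay on the minus strand 131 bases before the start of Pcdh17, on the plus strand 84 and 80 bases before that of Cdh6, where both matches overlap, and in Alcam on the minus strand at 159 and on the plus strand at 10 bases. Each distance is that of the first base of the match from the start. The Chl1 and Cntn2 windows held no match. Of the 36 genes, 21 were in the promoter table, with 28 promoters. Of these, 13 held GGGCGG, 1 held TATAAA (Cntn1) and 0 held AATTAAT or ATGCAAAT, where 32.7%, 12.4%, 2.46% and 1.60% of all 32851 promoters held them. A match is a string of letters and not a measured binding site, and its absence speaks of this window only. GC content of the printed windows was 51.2% for Cdh6, 52.4% for Chl1, 61.2% for Cntn2, 64.8% for Pcdh17 and 69.2% for Alcam.

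Among the contactins and their partners, Cntn2 (TAG-1), a contactin of growing axons, was measured by 2 probe sets on U74Bv2. The signal of 107389_at was 7104 (wild-type), 7941 and 6887 (heterozygote), then 3144 and 3364 (knockout). Both knockout arrays were lower than any other array, and the transcript fell 2.23-fold against all others (log2 difference -1.15 ± 0.14 SE, limma adjusted p = 0.00261). It also fell against heterozygote (-1.17 ± 0.18, limma adjusted p = 0.0136) and against wild-type (-1.12 ± 0.22, limma adjusted p = 0.0494). Leaving out knockout array 1 ended the wild-type call (adjusted p = 0.0873), as did leaving out array 2 (0.0776) and 4 other settings, up to 0.190 with no filter, which also ended the heterozygote call (0.0738). The other probe set, 114733_at, gave 4203 (wild-type), 2918 and 5377 (heterozygote), then 2008 and 2209 (knockout). Its knockout arrays were also the lowest, with a log2 difference of -0.92 ± 0.23 that did not pass the test (limma adjusted p = 0.0791). Without heterozygote array 1, whose signal lay nearest to the knockouts, the difference was -1.16. Leaving out the nearest array had to make it larger, so this fit was not counted as a pass.

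Cntnap1 (Caspr) is the partner of Cntn1 at the junction between axon and myelinating glia. The U74Bv2 probe set 105746_at gave 680 (wild-type), 679 and 485 (heterozygote), then 95.3 and 162 (knockout). Both knockout signals were far under the others, and the probe set passed the filter through the other arrays alone. Cntnap1 fell 3.75-fold against all other arrays (-1.91 ± 0.24, limma adjusted p = 0.00334), 4.16-fold against wild-type (-2.06 ± 0.34, adjusted p = 0.0292) and 3.56-fold against heterozygote (-1.83 ± 0.28, adjusted p = 0.0143). With no filter on low signal the calls against wild-type and against heterozygote were lost (adjusted p = 0.126 and 0.0755), and without an intensity trend the first of these was (0.0612), while the call against all other arrays passed under the 12 alternatives in which the probe set was tested. At a filter on the 60th percentile it was not tested. A second Cntnap1 probe set, 94626_at on U74Av2, lay below the filter. It gave 194 and 208 (wild-type), 71.6 and 52.5 (heterozygote), then 202 and 54.1 (knockout), so its knockout arrays overlapped with the rest (log2 difference -0.05).

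Cntn1, the contactin that pairs with Cntnap1, had 3 tested probe sets, none of which passed. On U74Bv2, 105826_at gave 725 (wild-type), 832 and 783 (heterozygote), then 502 and 526 (knockout). The probe set 164059_f_at, whose suffix marks a match to several related transcripts, gave 867 (wild-type), 953 and 1066 (heterozygote), then 677 and 576 (knockout). On U74Av2, 92936_at gave 826 and 1409 (wild-type), 763 and 1068 (heterozygote), then 578 and 654 (knockout). In all 3 the knockout arrays were the lowest, with log2 differences of -0.56 ± 0.15, -0.58 ± 0.16 and -0.64 ± 0.25 (limma adjusted p = 0.114, 0.114 and 0.517). Cntn3, Cntn4 and Cntnap2 lay below the filter.

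Alcam (CD166), an immunoglobulin-type molecule that binds itself and CD6, had 3 probe sets. On U74Bv2, 113908_at gave 2872 (wild-type), 2687 and 2898 (heterozygote), then 1550 and 1587 (knockout). The probe set 107969_at gave 6188 (wild-type), 6611 and 5392 (heterozygote), then 3544 and 2839 (knockout). Knockout arrays were the lowest for both, and Alcam fell 1.77-fold by the first (-0.83 ± 0.13, limma adjusted p = 0.00881) and 1.89-fold by the second (-0.92 ± 0.16, limma adjusted p = 0.0159) against all others.

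On U74Av2, Alcam probe set 104407_at gave 1320 and 1998 (wild-type), 1574 and 1727 (heterozygote), then 555 and 981 (knockout). There too the knockout arrays stood below the rest, by a log2 difference of -1.10 ± 0.25 that did not pass (limma adjusted p = 0.154). With the number in the array's label as a block it passed against all others (adjusted p = 0.00381), against wild-type (0.0330) and against heterozygote (0.0294). Of the direct U74Bv2 comparisons, 113908_at passed against heterozygote (-0.81 ± 0.16, limma adjusted p = 0.0409) and not against wild-type (-0.85, adjusted p = 0.0945). For 107969_at the limma adjusted p was 0.0646 against heterozygote and 0.134 against wild-type. Calls against all other arrays were lost for 107969_at without wild-type array 1 (0.0600), heterozygote array 1 (0.0806) or knockout array 2 (0.133), and for 113908_at without knockout array 1 (0.0619) or 2 (0.0533). The 113908_at call against heterozygote was lost without any 1 of the 4 arrays it compares (0.0576 and 0.136 without heterozygote array 1 and 2, 0.0802 and 0.0958 without knockout array 1 and 2), with no filter (0.0933) and with no intensity trend (0.134).

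**Figure D2:**
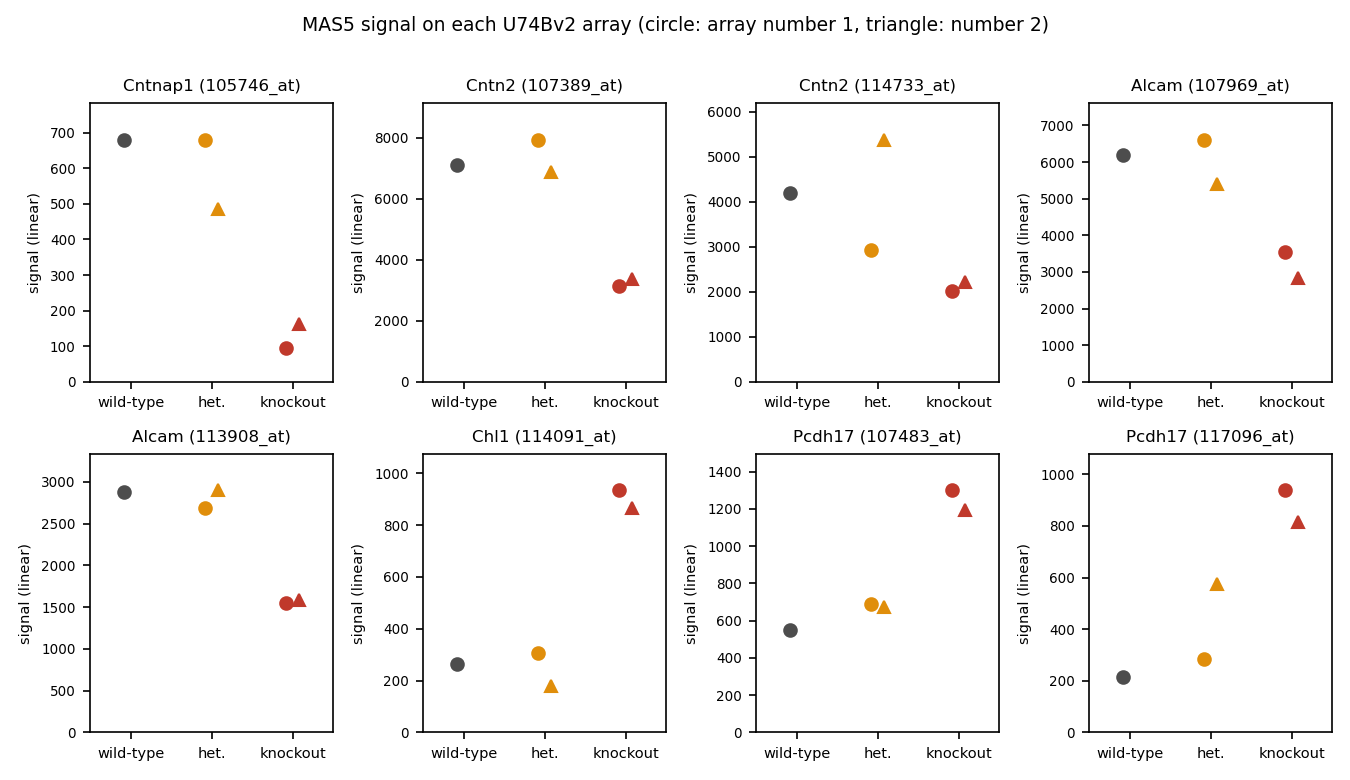
MAS5 signal (vertical axis, linear, from 0) on each U74Bv2 array by genotype for 8 probe sets of Cntnap1, Cntn2, Alcam, Chl1 and Pcdh17, with circles for number 1 and triangles for number 2. In every panel both knockout arrays lie on the same side of the wild-type and heterozygote arrays, for instance 934 and 866 against at most 308 for Chl1.

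Within the L1 type, Chl1, the close homolog of L1 that takes part in axon guidance with neuropilins, rose in the knockout. Its U74Bv2 probe set 114091_at gave 264 (wild-type), 308 and 179 (heterozygote), then 934 and 866 (knockout). Both knockout arrays lay well over the rest, and Chl1 rose 3.22-fold against all others (1.69 ± 0.22, limma adjusted p = 0.00369) and 3.32-fold against heterozygote (1.73 ± 0.26, adjusted p = 0.0128). The 3.03-fold difference from the lone wild-type array did not pass (1.60 ± 0.32, limma adjusted p = 0.0529). Leaving out a heterozygote array left this difference at 1.60 and changed only the estimate of spread. The call against heterozygote was lost with no filter (limma adjusted p = 0.0647).

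Both Chl1 probe sets on U74Av2 were dim and below the filter. Of these, 103088_at gave 39.0 and 12.2 (wild-type), 10.6 and 8.6 (heterozygote), then 146 and 167 (knockout), again with no overlap (log2 difference 1.63, and 1.63 ± 0.22 with limma adjusted p = 0.0299 when no filter was set). The other, 161239_r_at, designed under relaxed rules, ran from 3.3 to 73.3 with overlap between the genotypes.

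The remaining L1-type members did not pass the test. L1cam, the founding member of the family, gave for 110182_at on U74Bv2 9591 (wild-type), 9587 and 9257 (heterozygote), then 8473 and 7786 (knockout), a log2 difference of -0.22 ± 0.15 (95% interval -0.55 to 0.11, limma adjusted p = 0.642). On U74Av2 its probe set 99800_at differed by -0.37 ± 0.20 (adjusted p = 0.823). Nfasc, neurofascin, which later clusters channels at nodes, gave 2191 (wild-type), 2233 and 2451 (heterozygote), then 2819 and 3335 (knockout) for 116395_at. The other Nfasc probe set 116375_at gave 146 (wild-type), 146 and 184 (heterozygote), then 309 and 254 (knockout). Knockout arrays were the highest for both Nfasc probe sets, with differences of 0.41 ± 0.14 and 0.67 ± 0.24 (limma adjusted p = 0.223 and 0.264). Nrcam, an ankyrin-binding relative on U74Av2, gave 398 and 450 (wild-type), 415 and 418 (heterozygote), then 523 and 686 (knockout). Its knockout arrays were also the highest (0.47 ± 0.18, limma adjusted p = 0.490).

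Ncam1, the neural cell adhesion molecule, did not pass on any of its 3 tested probe sets. Of these, 100153_at on U74Av2 gave 9356 and 7575 (wild-type), 9637 and 8431 (heterozygote), then 10969 and 9197 (knockout). The genotypes overlapped, and the log2 difference of knockout from all others was 0.20 ± 0.18 (95% interval -0.20 to 0.61, limma adjusted p = 0.974). For 161750_f_at it was 0.07 ± 0.20 and for 164277_at on U74Bv2 -0.02 ± 0.27. Both Ncam2 probe sets were below the filter.

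Of the cadherins, Cdh6, a type II cadherin of the neural crest and its derivatives, was the member called. On U74Av2 its probe set 101730_at gave 161 and 147 (wild-type), 144 and 148 (heterozygote), then 351 and 397 (knockout). Both knockout arrays were over every other array, and Cdh6 rose 2.12-fold against all others (1.09 ± 0.19, limma adjusted p = 0.0430). The difference was 1.06 ± 0.24 from wild-type (adjusted p = 0.293) and 1.12 ± 0.24 from heterozygote (0.246, and 0.0498 with the label's number as a block), neither of which passed in the fit without a block. The call was lost when any 1 of the 6 arrays was left out, with adjusted p = 0.104 and 0.138 without wild-type array 1 and 2, 0.0987 and 0.152 without heterozygote array 1 and 2, and 0.213 and 0.261 without knockout array 1 and 2. It was also lost with no filter (0.114), and at a filter on the 60th percentile Cdh6 was not tested. Cdh6 has 1 probe set on U74Av2 and was not measured on U74Bv2.

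**Figure D3:**
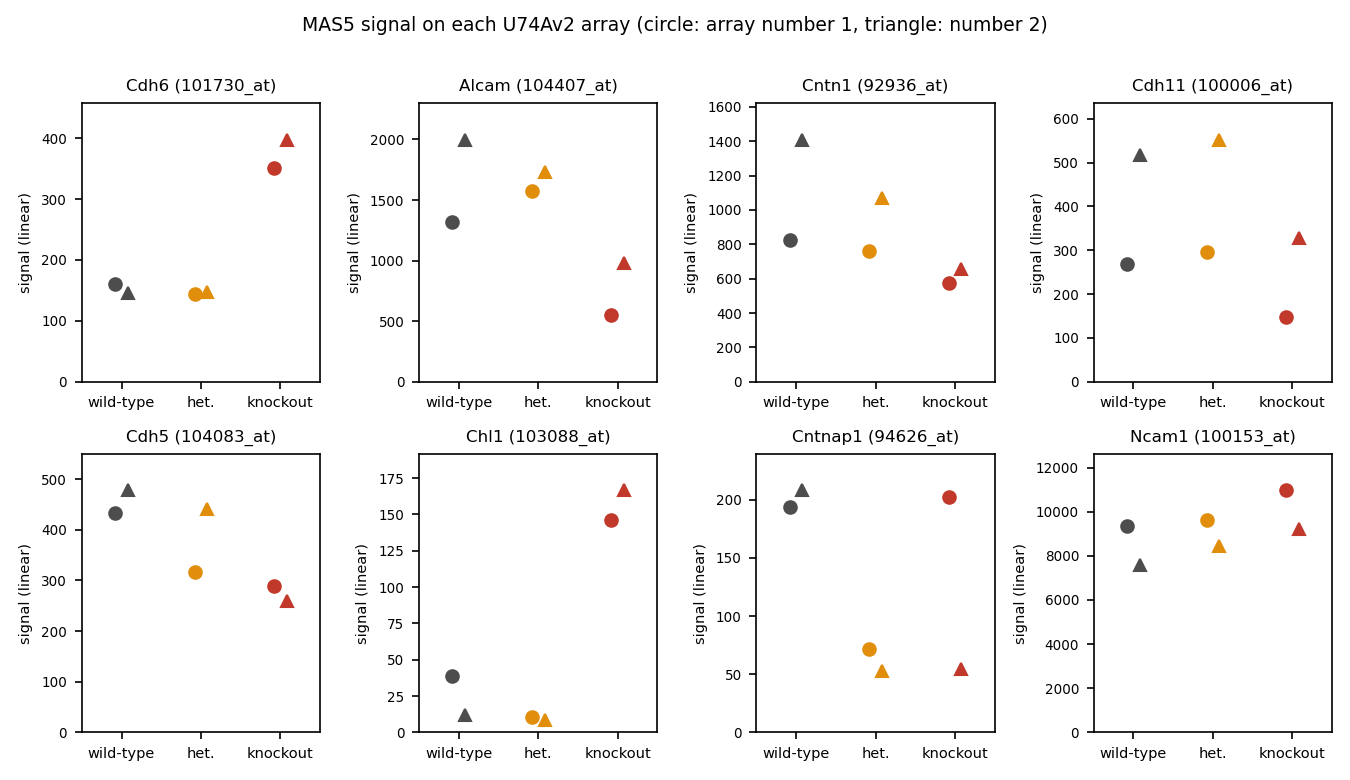
MAS5 signal (vertical axis, linear, from 0) on each U74Av2 array by genotype for 8 probe sets: Cdh6, Alcam, Cntn1, Cdh11, Cdh5, Chl1, Cntnap1 and Ncam1, with circles for number 1 and triangles for number 2. The Cdh6 knockout arrays lie at 351 and 397 against at most 161 elsewhere, while the Cntnap1 and Ncam1 arrays overlap between genotypes.

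Other cadherins of neurons and glia gave values that did not pass. Cdh10, a type II cadherin whose gene lies beside Cdh9 on chromosome 15 with 0 protein-coding genes between them, gave 559 (wild-type), 453 and 596 (heterozygote), then 776 and 813 (knockout). Knockout arrays were the highest for this probe set, 105823_at on U74Bv2 (0.53 ± 0.17, limma adjusted p = 0.186). Another Cdh10 probe set, 94641_at on U74Av2, lay below the filter, and its genotypes overlapped (log2 difference 0.40). Cdh13, the cadherin with a lipid anchor, had 4 tested probe sets with unlike values. In 107622_at the signal was 413 (wild-type), 460 and 412 (heterozygote), then 206 and 244 (knockout). In 115923_f_at it was 787 (wild-type), 817 and 669 (heterozygote), then 555 and 398 (knockout). Knockout arrays were the lowest in both (-0.80 ± 0.19 and -0.63 ± 0.19, limma adjusted p = 0.0702 and 0.149), while 115922_i_at and 164646_at differed by -0.02 ± 0.22 and -0.28 ± 0.29. Cdh2, N-cadherin, gave 2163 and 2993 (wild-type), 2151 and 2646 (heterozygote), then 2624 and 3046 (knockout). The genotypes overlapped for Cdh2 (0.19 ± 0.19, limma adjusted p = 0.991). Cdh4, R-cadherin, differed by -0.38 ± 0.37 on U74Av2 and -0.02 ± 0.14 on U74Bv2.

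Several cadherins are known from cells other than neurons. Cdh5, VE-cadherin of endothelium, gave 434 and 478 (wild-type), 318 and 442 (heterozygote), then 290 and 260 (knockout). Its knockout arrays were the lowest without passing the test (-0.52 ± 0.20, limma adjusted p = 0.532). Of the 8 endothelial marker genes tested on U74Av2, Cdh5 among them, 0 were called by limma against all other arrays. An unadjusted p under 0.05 was reached by 2 of them and by 7.92% of all tested probe sets. The differences of the 8 went both ways, from -0.52 (Cdh5) to 0.91 (Pecam1). The summed signal of that list was 2874 to 3221 in wild-type, 2805 to 3171 in heterozygote and 2676 to 3118 in knockout arrays. Cdh11, a cadherin of mesenchyme, gave 268 and 518 (wild-type), 297 and 552 (heterozygote), then 147 and 329 (knockout). For Cdh11 the arrays of a genotype differed more than the genotypes, with number 2 over number 1 in each, and the difference was -0.69 ± 0.36 (limma adjusted p = 0.788, and 0.0391 with the number as a block). Mesenchymal marker sums overlapped, at 20007 to 25615 in wild-type, 23025 to 25028 in heterozygote and 22853 to 27082 in knockout arrays. Of the 12 mesenchymal markers tested, Cdh11 among them, 0 were called by limma against all other arrays and 2 had an unadjusted p under 0.05. Their differences also went both ways, from -0.69 (Cdh11) to 0.63 (Col3a1). Cdh1 and Cdh3, the cadherins of epithelium, differed by 0.16 ± 0.19 and 0.31 ± 0.31, and Cdh17 by -0.45 ± 0.32. For another Cdh3 probe set, 162097_r_at, which lay below the filter, the knockout arrays were the lowest (log2 difference -0.57). The muscle cadherin Cdh15 and the kidney cadherin Cdh16 lay below the filter, as did Cdh8 and Cdh9.

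In the protocadherins, Pcdh17, a non-clustered protocadherin that collects along contacts between axons, was called. Its U74Bv2 probe set 107483_at gave 552 (wild-type), 688 and 673 (heterozygote), then 1301 and 1193 (knockout). Both knockout arrays lay over the rest, and Pcdh17 rose 1.89-fold against all others (0.92 ± 0.16, limma adjusted p = 0.0151) and 2.15-fold against wild-type (1.11 ± 0.21, adjusted p = 0.0447). Against heterozygote it did not pass (0.83 ± 0.17, limma adjusted p = 0.0524). Leaving out the wild-type array left this difference at 0.83 and changed only the estimate of spread (limma adjusted p = 0.0492). Without knockout array 1 or 2 the call against all others was lost (adjusted p = 0.101 and 0.0706), as was that against wild-type (0.0629 and 0.0546). The wild-type call was also lost with no filter (0.111), no intensity trend (0.115) and median centring (0.0591). The other Pcdh17 probe set, 117096_at, gave 215 (wild-type), 283 and 576 (heterozygote), then 938 and 817 (knockout). Its knockout arrays were the highest too (1.28 ± 0.32, limma adjusted p = 0.0843). Without heterozygote array 2, whose signal lay nearest to the knockouts, the difference was 1.64. Leaving out the nearest array had to make it larger, so that fit was not counted as a pass. Its difference from wild-type, 1.81 ± 0.36, did not pass (limma adjusted p = 0.0569). Leaving out a heterozygote array left that difference at 1.81 and changed only the estimate of spread.

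Pcdh19, a protocadherin that acts together with N-cadherin, gave 356 (wild-type), 314 and 356 (heterozygote), then 522 and 596 (knockout). Its knockout arrays were the highest, without passing (0.63 ± 0.18, limma adjusted p = 0.122). For 1 Pcdh10 probe set and for Pcdhb22 a single knockout array decided the value. The Pcdh10 probe set 164244_at gave 357 (wild-type), 451 and 517 (heterozygote), then 346 and 43.6 (knockout), a difference of -1.34 ± 0.50 (limma adjusted p = 0.290). It was -2.38 (adjusted p = 0.00649) without knockout array 1 and -0.30 (0.804) without knockout array 2. A further Pcdh10 probe set 105790_at gave 1121 (wild-type), 1152 and 1013 (heterozygote), then 967 and 976 (knockout), a difference of -0.16 ± 0.14. Pcdhb22, of the clustered beta protocadherins, gave 889 (wild-type), 854 and 897 (heterozygote), then 276 and 843 (knockout), a difference of -0.78 ± 0.34 (limma adjusted p = 0.399). Without knockout array 2 it was -1.51 (adjusted p = 0.0102), and without knockout array 1 -0.058 (0.936). Pcdh12 and Pcdh7 differed by -0.08 ± 0.18 and -0.15 ± 0.24, and Pcdh1, Pcdh9 and Pcdhb7 were below the filter.

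**Figure D4:**
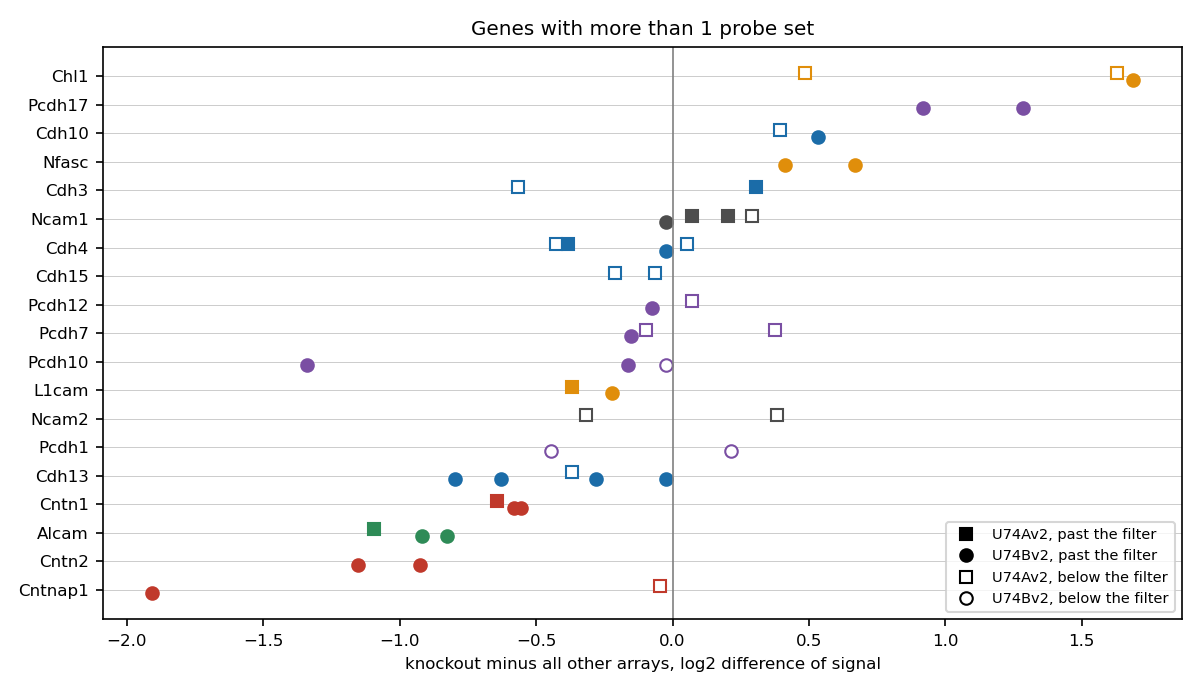
Log2 difference between knockout and all other arrays (log2 scale) for each probe set of the genes with more than 1, squares for U74Av2 and circles for U74Bv2, filled where the probe set passed the filter on low signal. The Alcam probe sets lie between -1.10 and -0.83 and the tested Cntn1 probe sets between -0.64 and -0.56, while the Cntnap1 probe sets lie at -1.91 and -0.05.

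Neighbouring genes did not share a direction throughout. Cntn2 and Nfasc lie next to each other on chromosome 1 with 0 protein-coding genes between them, and Cntn2 fell while both Nfasc probe sets had their highest signals in the knockouts. Chl1 lies between Cntn3 and Cntn4 on chromosome 6, and both of these were below the filter. Cdh11 and Cdh5 are neighbours on chromosome 8 and had differences of -0.69 and -0.52, neither of which passed. Cdh3 and Cdh1, also neighbours there, had 0.31 and 0.16 by their tested probe sets, and neither passed. The Cdh3 probe set below the filter had -0.57. On chromosome 15, Cdh9 lies between Cdh6 and Cdh10 and was below the filter. Cdh6 rose (1.09, called) and Cdh10 differed by 0.53 without passing.

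Between heterozygote and wild-type the members' differences ran from -0.46 (Cdh4) to 0.36 on U74Av2 and from -0.41 (Cdh17) to 0.79 (Pcdh17 117096_at) on U74Bv2. Their median size was 0.14 on U74Av2 and 0.13 on U74Bv2, where all tested probe sets had 0.13 and 0.17. For the called members the heterozygote differed from wild-type by 0.06 ± 0.22 (Cntn2 107389_at), -0.23 ± 0.34 (Cntnap1), -0.13 ± 0.32 (Chl1), 0.28 ± 0.21 (Pcdh17 107483_at), -0.051 ± 0.24 (Alcam 107969_at), -0.041 ± 0.19 (Alcam 113908_at) and -0.06 ± 0.24 (Cdh6), each with a limma adjusted p of 1.00. On U74Bv2 this rests on 1 wild-type array, and the Cntnap1 value is that of 105746_at alone. The Cntnap1 probe set below the filter, 94626_at on U74Av2, was not tested. It gave 194 and 208 in wild-type and 71.6 and 52.5 in heterozygote arrays.

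Molecules that work with these proteins inside the cell were measured as a list of catenins, ankyrins, spectrins, polysialyltransferases and linked signalling proteins. None of the 27 tested on U74Av2 or the 10 on U74Bv2 was called by limma in any comparison. Against all other arrays, 4 of 27 and 1 of 10 had an unadjusted p under 0.05, where 7.92% and 12.3% of all tested probe sets did. The median log2 difference was 0.04 and -0.04, where all tested probe sets had 0.02 on both array types. With the label's number as a block, 1, 1 and 4 of the 27 were called on U74Av2 against wild-type, heterozygote and all others, where 1.74%, 1.73% and 3.57% of all tested probe sets were. The 3 brightest on U74Av2 differed by -0.15 ± 0.18 (Gap43, a growth cone protein), 0.28 ± 0.16 (Dcx, doublecortin) and 0.13 ± 0.25 (Ctnnb1, beta-catenin). On U74Bv2 they differed by -0.15 ± 0.13 (Ank2, an ankyrin), -0.11 ± 0.16 (Epb41l3, a membrane skeleton protein that binds Cntnap1) and 0.20 ± 0.14 (Afdn, afadin).

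Ligands and matrix partners held calls in both array types. On U74Bv2, 1 of 3 was called against all other arrays (2.93% of all tested probe sets were), Nrp2, a semaphorin receptor, which rose (1.53 ± 0.17, limma adjusted p = 0.00184). Nrp2 also rose against wild-type (1.80 ± 0.21, adjusted p = 0.00771) and heterozygote (1.39 ± 0.17, adjusted p = 0.00614), and Adam22 fell against wild-type (-1.05 ± 0.19, adjusted p = 0.0422). On U74Av2, 1 of 18 was called against all others (0.872% of all tested were), Vcan, the matrix proteoglycan versican, which rose (1.13 ± 0.19, limma adjusted p = 0.0413). Between knockout and wild-type or heterozygote 0 of these 18 were called by limma, with 4 and 3 at an unadjusted p under 0.05 (5.11% and 5.25% of all tested). The Vcan call was lost when any 1 of the 6 arrays was left out (adjusted p from 0.0742 without wild-type array 1 to 0.281 without knockout array 1), with no filter (0.0561) and with no intensity trend (0.0516). The Adam22 call was lost without knockout array 2 (0.0573), with no filter (0.109) and with no intensity trend (0.134). With the label's number as a block, 2 of the 18 on U74Av2 were called in each of these 3 comparisons, where 1.74%, 1.73% and 3.57% of all tested probe sets were.

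Other members of the cadherin superfamily gave 2 calls among 7 tested on U74Bv2 against all other arrays, where 2.93% of all tested probe sets were called. Clstn2, a calsyntenin, fell (-1.06 ± 0.17, limma adjusted p = 0.0102) and Cdhr1 rose (0.71 ± 0.14, adjusted p = 0.0316) against all other arrays. The Clstn2 call was lost without knockout array 1 (0.0625) or 2 (0.0524), and that of Cdhr1 without wild-type array 1 (0.115), heterozygote array 1 (0.134), knockout array 1 (0.129) or 2 (0.180), with no filter (0.0560) and with no intensity trend (0.0943). Clstn2 also fell against heterozygote (-1.10 ± 0.19, adjusted p = 0.0275), though not without heterozygote array 2 (0.126), with no filter (0.0820) or with no intensity trend (0.0798). By limma 0 of 7 were called against wild-type, with 4 at an unadjusted p under 0.05 (11.2% of all tested). On U74Av2, 0 of 2 were called by limma against all others, with 1 at an unadjusted p under 0.05 (7.92% of all tested). Celsr2 differed by 0.40 ± 0.44 and Dsg2 by -0.65 ± 0.25. Other immunoglobulin-type adhesion molecules gave 0 calls by limma in any comparison among 12 on U74Av2 and 14 on U74Bv2, with 2 and 1 at an unadjusted p under 0.05 against all other arrays (7.92% and 12.3% of all tested). The brightest on U74Av2, Cadm1, Bsg and Cd47, differed by -0.02, 0.01 and 0.20, while with the block 1 of 12 was called against all others (3.57% of all tested). On U74Bv2 Cadm4, Ntm and Mpzl1 differed by -0.02, 0.58 and -0.14.

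Markers of the cell types a dissected ganglion can hold were set beside these results. Of the sensory neuron list, 1 of 13 tested on U74Av2 (Avil) was called lower in knockout against all other arrays. On U74Bv2 it was 2 of 7, Scn9a and Pou4f1, of which Pou4f1 is the targeted gene. Of all tested probe sets, 0.577% on U74Av2 and 1.96% on U74Bv2 were called lower. The median log2 differences of the list, Pou4f1 included, were -0.21 and -0.29, against 0.02 over all tested probe sets on both array types. For Schwann and satellite glia 0 of 10 tested on U74Av2 were called by limma and 1 had an unadjusted p under 0.05, with summed signals of 18510 to 20050 in wild-type, 20906 to 22844 in heterozygote and 22324 to 25372 in knockout arrays. On U74Bv2, 1 of the 2 tested genes of this list was called, against 2.93% of all tested probe sets. It was Ngfr, which fell (-1.45 ± 0.16, limma adjusted p = 0.00148), while Sox10 differed by 0.34 ± 0.17 (adjusted p = 0.499). Of the central nervous system list, 1 of 2 tested on U74Av2 and 1 of 1 on U74Bv2 were called. Of all tested probe sets 0.872% and 2.93% were. Meis2 fell on U74Av2 (-1.75 ± 0.22, limma adjusted p = 0.0122) and Slc1a3 rose on U74Bv2 (1.47 ± 0.27, limma adjusted p = 0.0218). The list names are labels only, since which cells of the ganglion carried Ngfr, Meis2 or Slc1a3 was not measured. Skeletal muscle, red blood cell and macrophage markers gave 0 calls by limma among 7, 6 and 4 tested on U74Av2, and 0 had an unadjusted p under 0.05. Of the epithelial list on U74Av2, Cdh1 alone of 12 genes was above the filter and 7 of 12 stayed under a signal of 100 on every array. The part of any of these cell types in the differences of the adhesion molecules was not tested.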

How the data were processed

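Total RNA of pooled ganglia was hybridised to Affymetrix U74Av2 and U74Bv2 arrays. The deposited values are intensities, 1 linear signal per probe set, made by the authors with MAS5 per the submitters' processing notes. Version, scaling target and detection calls were not given in the sources used here. Platform symbols were updated by Entrez identifier through a RefSeq table of GRCm38.p6, used for names, gene order and promoters. Identifiers matched for 10839 of 12488 and 10550 of 12411 probe sets, and 0 symbols changed. Probe sets with several symbols were left out, among them 8 on U74Av2 with a symbol that meets the naming rule.

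Controls and probe sets with a mean log2(signal + 0.1 of the mean trimmed mean) at or below the 40th percentile were left out, which left 7453 and 7446. limma 3.58.1 in R 4.3.3 was fitted per array type with genotype as its factor, or knockout against the rest, followed by eBayes with an intensity trend. The lone wild-type U74Bv2 array was assumed to vary like the other genotypes. Figures were drawn with matplotlib 3.10.9 in Python 3.11.15. The fit was tested on simulated data. The number of arrays limits the precision.

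Signals on every array are given for members called in any comparison, for those whose knockout arrays overlap with no other and differ by at least 0.5 (log2), and for the brightest of each family. Signals of other members were added after their values were seen. From other lists up to 6 called genes are named, otherwise the 3 brightest. The members, rules and lists were chosen with earlier results of these data known.

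The numbers 1 and 2 in the labels are shared between genotypes, and the labels do not say what they mark. On U74Av2, deviations of same-numbered arrays from their genotype's mean correlated at 0.57 (wild-type and heterozygote), 0.62 (wild-type and knockout) and 0.53 (heterozygote and knockout). On U74Bv2 the correlation was 0.10 (heterozygote and knockout). The fit without the number is given, and a fit with it as a block was an alternative. Other alternatives were the pseudocount, the filter, no intensity trend, quantile normalization, median centring and leaving out each array.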

Additional observations from a re-analysis of the deposited data

How the results depend on the processing

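Counts of called members moved with the filter and with the number as a block. On U74Bv2 the 3 calls against wild-type became 0 with no filter, 0 without an intensity trend, 1 with median centring and 8 with the replicate block, and 3 to 7 with 1 array left out. The 4 calls against heterozygote became 0 with no filter, 9 with the block and 4 to 5 with 1 array left out. Those against all other arrays (6) were 6 to 7 under the other planned settings, 5 of 23 when counting members that passed the filter on both sides (a count chosen after seeing the data), and 4 to 7 with 1 array left out. On U74Av2 the 1 call against all others became 0 at the 60th percentile, 3 with the block and 0 in every fit without 1 array. The 0 calls against wild-type and against heterozygote became 1 and 2 with the block.

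Over all tested probe sets, U74Av2 calls were 19 (11 to 130 under other settings, 0 to 15 with 1 array left out) against wild-type, 14 (8 to 129, 0 to 11) against heterozygote and 65 (42 to 266, 17 to 42) against all others. On U74Bv2 they were 104 (21 to 216, 115 to 178), 127 (54 to 317, 130 to 188) and 218 (158 to 231, 112 to 202). Heterozygote against wild-type gave 0 (0 to 7, 0 to 10) on U74Bv2. Directions were followed for probe sets that were called, stood clear by at least 0.5 or were the brightest of a family. Among these, a knockout difference turned direction once. It was that of Cdh2 against wild-type, from 0.15 to -0.081 without wild-type array 1 (0.38 without array 2). Other members, some with differences near 0, are not covered by this count. Cntn2 107389_at and Chl1 passed against all other arrays under the 13 alternatives run, and Cntnap1 under 12, since it was not tested at the 60th percentile. The causes of these shifts were not tested.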
